A study of Felis catus with 38 samples.

Results

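The 200 genes described here are those whose level most closely followed the gene with the most reads of the table, across Day 1 tumour biopsies of pet cats with oral cancer. They were chosen by their correlation with that gene, the anchor ENSFCAG00000004564, over the 19 Day 1 libraries only. By mean log2 level at Day 1, with 13.09, the anchor is below the highest gene of the table, which has 13.48. Levels were taken as log2(CPM + 1), where CPM is a gene's count per 1000000 counts of its library. Of 26681 gene IDs, 12763 had a mean log2 level of 2 or more at Day 1, and 5513 of these correlated more with the anchor than with 2 other reference genes. The 200 with the highest Pearson r were kept, and 3 further abundant genes that follow the anchor were left out by the rule. No gene symbols come with the IDs, and 0 of 26681 IDs matched a symbol in the reference table used here. The members are therefore described by their values, and the labelled tissue could not be checked against markers of its cell types.

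The study sampled oral tumours of cats at Day 1, before treatment, and again at Day 8, with 19 libraries of bulk RNA at each day. The Day 8 libraries carry the treatment label CS3D, a cyclic oligonucleotide aimed at STAT3. The design text places the Day 8 biopsy ahead of CS3D dosing and does not say whether earlier doses had been given, so the extent of exposure at Day 8 is taken here only as far as the label states it. All libraries are labelled as tumour from the mucosal surface of the oral cavity, and the labels give no other genotype, strain or age. The same 19 numbers, from 1 to 20 without 6, occur at both days, and a number is called a cat below. Day 8 libraries of cats 13 to 20 are labelled batch 2, and all others batch 1. The libraries used here hold no Day 8 biopsy of an untreated cat, so treatment cannot be told apart from time or from repeated biopsy. Library totals ranged from 10600000 to 22600000 counts at Day 1 and from 11400000 to 20500000 at Day 8.

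STAT3 is a transcription factor that cytokine and growth factor receptors activate through phosphorylation by kinases such as those of the JAK family. It drives genes of survival, proliferation and inflammation, and it is often active in tumours of squamous epithelium. A biopsy of such a tumour holds malignant epithelium together with fibroblasts, vessels, muscle and immune cells. Genes that are used by the same cells tend to rise and fall together between biopsies. In bulk RNA, more cells of a type and more RNA per cell cannot be told apart.

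The members differed widely between cats before treatment, and they did so in step with the anchor. At Day 1 the anchor had 1156 CPM in the lowest library, a median of 10411 CPM and 66865 CPM in the highest. Cat 1 was lowest, cats 2 and 13 were next with 1853 and 1894 CPM, and cat 18 was highest. The mean log2 level of the 200 members followed the same order at its ends, from 3.32 in cat 1 to 6.99 in cat 18, with a median of 5.21. The median member differed 15.4-fold between its lowest and its highest cat at Day 1. In 186 of 200 members the lowest Day 1 library was that of cat 1 or cat 2, and in 154 the highest was that of cat 18. The members' own SD over cats at Day 1 had a median of 1.04 on the log2 scale, against 0.46 for the 12559 other genes of that level. The rule chose genes that vary with the anchor, so these Day 1 values are a description.

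The members covered a wide range of read abundance. Their mean log2 level at Day 1 ran from 2.08 to 10.35 with a median of 4.88, near the median of 5.00 over all 12763 genes. Of the 200, 62 had a mean level below 4 and 20 a mean level of 8 or more. The most abundant member by reads had 197 CPM in its lowest Day 1 library, a median of 1645 CPM and a highest value of 7733 CPM. The 10 members with the most reads took 42.5 ± 2.50% of the members' counts at Day 1 and 42.7 ± 2.51% at Day 8 (SD over 19 cats). These values are reads per library, not corrected for gene length. The share of the list held by its most abundant members thus stayed within the spread between cats while the level of the whole list moved.

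The r that chose the members ran from 0.806 to 0.984 with a median of 0.872. The genes at places 199 and 200 had r of 0.807 and 0.806, and those at places 201 and 202, just outside, had 0.806 and 0.804. The limit therefore falls within a continuous series of genes. The 3 abundant genes that the rule left out had r of 0.958 to 0.991 at Day 1. Over both days, the 5 genes most like the anchor by the mean of the 2 correlations were 2 of these left-out genes and 3 members. Their mean r was 0.993 and 0.982 for the left-out genes and 0.982, 0.976 and 0.973 for the members, each over 19 libraries a day.

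The Day 8 libraries took no part in the choice, and the members followed the anchor there too. Their r with the anchor at Day 8 had a median of 0.910 and a range of 0.690 to 0.987, against a median of -0.18 over the 12559 other genes. An r of 0.8 or more was reached by 181 of 200 members, or 90.5%, against 3.34% of all 12762 genes of that level. At Day 8 all 200 members again correlated more with the anchor than with either of the other reference genes, against 3646 of 12763 genes (28.6%). The same rule applied to the Day 8 libraries alone picks 200 genes, of which 129 are members, a share of 64.5% of either list. The correlation between pairs of members had a median of 0.82 at Day 1 and 0.83 at Day 8, over 19900 pairs. These points come from the same 19 cats as at Day 1, and members are not independent of each other.

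Part of this correlation rests on cats 1 and 2, the libraries with the least anchor at Day 8. Without these cats the median r at Day 8 was 0.857, the lowest was 0.325, and 130 members had an r of 0.8 or more, against 240 of 12762 genes. At Day 1 the median without the same cats was 0.828. With Spearman's rank correlation in place of Pearson's, the Day 8 median over 19 libraries was 0.879.

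**Figure D1:**
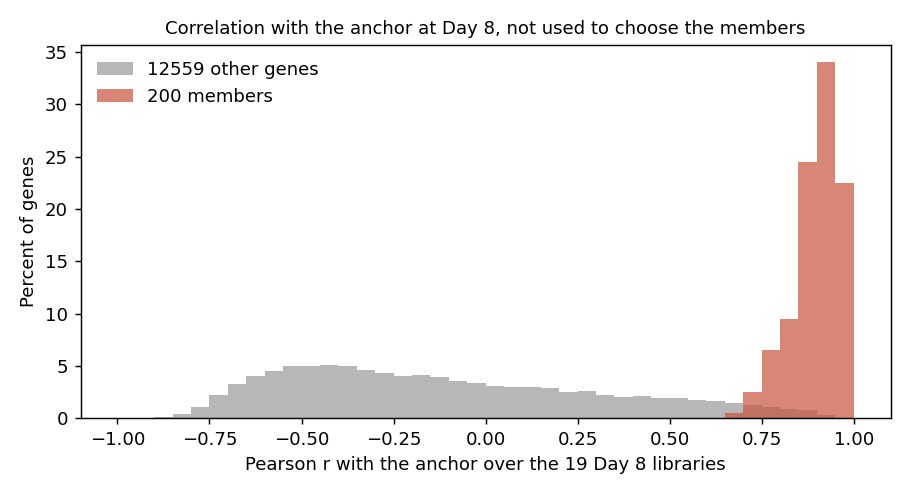
Distribution of Pearson's r with the anchor over the 19 Day 8 libraries, as the percent of genes in bins of r, for the 200 members (red) and 12559 other genes with a mean log2 level of 2 or more (grey). The members lie between 0.690 and 0.987, and the other genes spread around a median of -0.18.

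The members with the highest r at Day 1 also followed the anchor most closely at Day 8. In the list ordered by Day 1 r, the 50 members at the top had a median r of 0.948 at Day 8. The following groups of 50 had medians of 0.919, 0.895 and 0.873. The member with the highest r at Day 1, 0.984, had 0.980 at Day 8. The lowest r at Day 8, 0.690, belonged to a member with the largest spread between cats in the list, with an SD of 2.59 at Day 1. That member had from 0.708 to 747 CPM at Day 1 and from 0.678 to 785 CPM at Day 8. It rose in cat 16 from 7.56 to 706 CPM while it fell in cat 15 from 635 to 306 CPM, although the anchor rose in both of these cats.

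Between Day 1 and Day 8 most members rose together. With the cat as a block, edgeR's quasi-likelihood test called 184 of 200 members higher at Day 8 and 0 lower, at an adjusted p under 0.05 over all 14996 tested genes. With a batch term beside the cat block, 0 members and 0 genes were called, at a median change of the members of 0.87. That fit takes the day change only from cats whose batch label is the same on both days. In the fit without batch, over all genes the share called higher was 5.11% (767 genes) and the share called lower 1.93% (290 genes). With library totals as the scaling instead of TMM factors, 575 genes were called higher and 1239 lower, with 182 members higher and 0 lower, against 3.83% of all genes higher. DESeq2 called 1286 genes higher (8.58%) and 857 lower, with 194 members higher and 0 lower. All 200 members passed the filter on low counts. The median log2 change of the members was 0.84, a 1.79-fold rise, and that of all tested genes was -0.02. Fitted changes of the members ran from 0.22 to 1.66, so each of the 200 was above 0. Of the called members, 52 rose more than 2-fold, 109 rose 1.5-fold to 2-fold, and 23 rose less than 1.5-fold. Of the 102 genes of the table called higher by more than 2-fold, 52 were members and 4 were the anchor and the left-out abundant genes, which rose by 1.04 to 1.42 on the log2 scale.

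These calls are not 200 separate results. The members move together between biopsies, and the anchor was chosen with its own rise already known. The change also uses the Day 1 libraries that the rule used, though not the difference between days. The single-cat values below show what the list did in each animal.

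**Figure D2:**
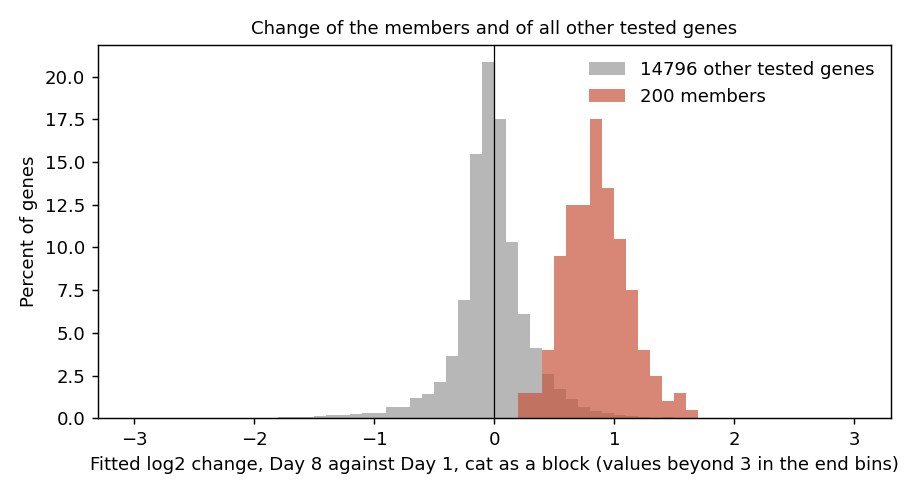
Fitted log2 change from Day 1 to Day 8 with the cat as a block, as the percent of genes in bins, for the 200 members (red) and the 14796 other tested genes (grey). The members lie between 0.22 and 1.66 with a median of 0.84, to the right of the main body of the other genes around 0.

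The anchor went from a median of 10411 CPM at Day 1 to 26682 CPM at Day 8, with a Day 8 range from 1250 to 100730 CPM. It was higher at Day 8 in 16 of 19 cats, and the ranges of the days overlapped almost throughout. The largest rises were from 3661 to 40288 CPM in cat 20 and from 6880 to 62982 CPM in cat 11. It was lower in cat 2, from 1853 to 1813 CPM, in cat 4, from 13618 to 12930 CPM, and in cat 19, from 10411 to 7911 CPM. In edgeR's test its log2 change was 1.42 ± 0.27 (SE), with an adjusted p of 0.00625. With a batch term beside the cat block it was 1.28 with an adjusted p of 0.0968, and the call was lost. In the cats whose batch label is the same on both days, fitted alone, the anchor's change was also 1.28. Of the members, 196 of 200 had a smaller mean change than the anchor.

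As a list, the members were higher at Day 8 in 16 of 19 cats. The mean over members of the Day 8 minus Day 1 difference in log2 level was 0.73 ± 0.61 (SD over cats, n = 19). It was highest in cat 11 with 1.92, where 200 of 200 members were higher. Cats 7, 20 and 3 followed with 1.67, 1.67 and 1.47, and with 199, 199 and 194 members higher. The mean was not above 0 in cat 4, with -0.25 and 66 members higher, in cat 19, with -0.09 and 84 higher, or in cat 1, with -0.0011 and 100 higher. In the same cats the median change over all 12763 genes lay between -0.33, in cat 3, and 0.04, in cat 2.

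Measured as a share of the library, the members held 2.64 ± 1.88% of the counts at Day 1. At Day 8 they held 4.60 ± 2.68% (SD over 19 cats on each day), and 17 of 19 cats gained. The gain was 1.96 ± 1.83 percentage points and reached 5.68 points in cat 11, from 1.68% to 7.36%. The Day 1 and Day 8 shares overlapped between cats, since cat 18 already had 8.22% at Day 1 and cat 1 had 0.649% at Day 8.

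**Figure D3:**
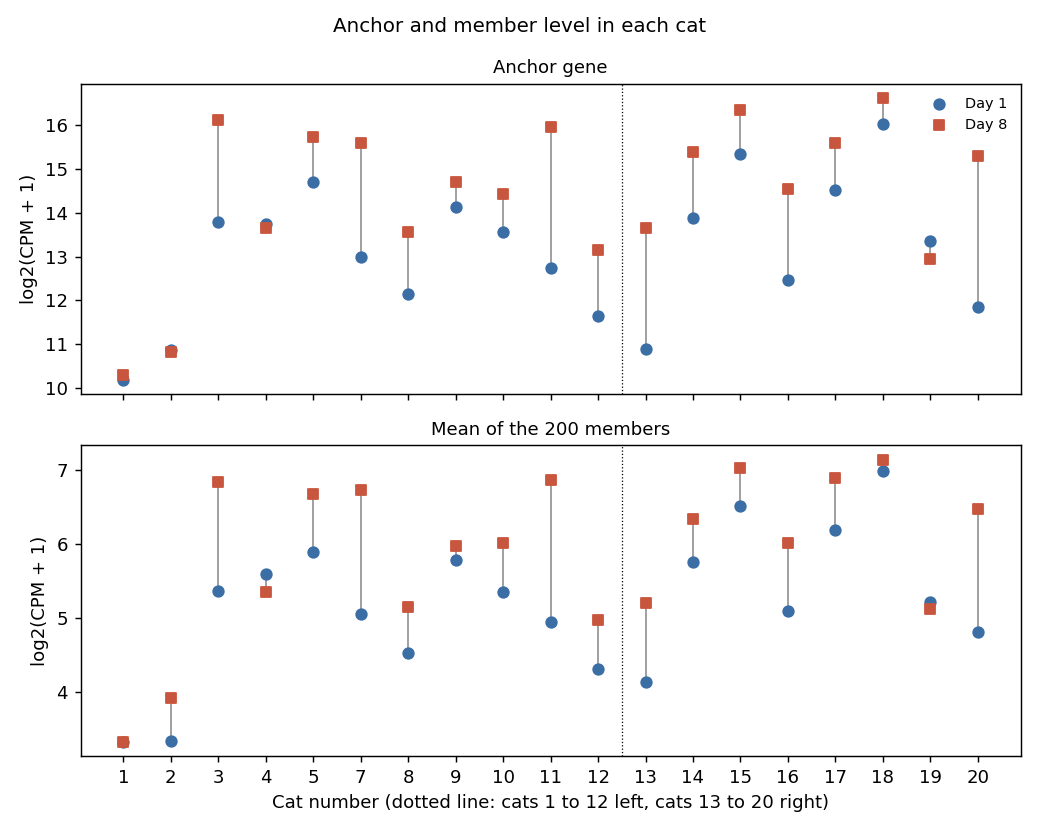
Level of the anchor (upper panel) and mean level of the 200 members (lower panel) in each of 19 cats, in log2(CPM + 1), at Day 1 (circles) and Day 8 (squares). Lines join the libraries of a cat, and 16 of 19 cats have the member mean higher at Day 8, while cats 1, 4 and 19 do not.

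Single members rose in most cats but rarely in all. The median member was higher at Day 8 in 16 of 19 cats. A rise in 15 or more cats was found for 163 of 200 members, or 81.5%, against 4.36% of all 12763 genes. Only 5 members were higher in all 19 cats. Of these, the member with the largest rise had from 0.535 to 12.4 CPM at Day 1, with a median of 4.96, and from 1.45 to 33.1 CPM at Day 8, with a median of 12.0. Its log2 change was 1.20 ± 0.17 (SE, edgeR, adjusted p = 0.00436). In cat 19 it went from 12.2 to 33.1 CPM while the anchor went from 10411 to 7911 CPM.

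The largest rise among the called members was that of ENSFCAG00000015298. It had from 0.809 to 205 CPM at Day 1, with a median of 22.6, and from 0.113 to 395 CPM at Day 8, with a median of 98.8. It was higher in 17 cats and lower in cats 1 and 19, and the ranges of both days overlapped. In cat 3 it went from 22.6 to 395 CPM and in cat 13 from 1.45 to 34.5 CPM. Its log2 change was 1.66 ± 0.31 (SE), a 3.16-fold rise, with an adjusted p of 0.00622 in edgeR's test. With a batch term beside the cat block it was 1.69 with an adjusted p of 0.0795 in the same test, and the call was lost. In the cats whose batch label is the same on both days, fitted alone, its change was also 1.69. Its r with the anchor was 0.90 at Day 1 and 0.937 at Day 8.

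The 10 members with the largest called rises changed by 1.26 to 1.66 on the log2 scale, or 2.39-fold to 3.16-fold, each in 14 to 17 cats. Their median Day 1 levels ran from 3.11 to 94.9 CPM, with a median of 9.55 CPM over the 10. The 5 members with the highest Day 1 r changed by 0.84 to 1.20, in 16 to 18 cats, with adjusted p from 0.00590 to 0.00657 in edgeR's test. The 10 members with the most reads changed by 0.58 to 1.18, in 13 to 18 cats. The most abundant of all went from a median of 1645 to 4541 CPM and rose by 1.18 ± 0.23 (SE, adjusted p = 0.00657), in 18 of 19 cats.

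The 16 members that were not called had log2 changes from 0.22 to 1.55 and adjusted p from 0.0521 to 0.483 in edgeR's test. They were higher at Day 8 in 10 to 15 cats. A small change marked some of them and a large spread others. The smallest change, 0.22 ± 0.10 (SE), belonged to a member that had from 10.2 to 25.0 CPM at Day 1 and from 9.29 to 29.3 CPM at Day 8. The member with the lowest Day 8 r had a change of 1.55 ± 0.57 (SE) and an adjusted p of 0.0967, and it was higher in 12 cats. The highest adjusted p, 0.483, was that of a member higher in 10 cats and lower in 9, with a change of 0.25 ± 0.21 (SE). Another uncalled member had a count of 0 in cat 2 at Day 1 and a count of 2 there at Day 8, and it is the only member with a count of 0 in any library.

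How much a member rose went with how steeply it followed the anchor between cats before treatment. The slope of a member on the anchor, in log2 per log2, had a median of 0.58 at Day 1 and 0.59 at Day 8. It was below 1 in all but 7 members at Day 1, so a given difference in the anchor between cats came with a smaller fitted difference in most members. Over the 200 members the Day 1 slope and the mean change correlated with r = 0.784, and the slopes of both days with r = 0.876. The 50 members with the lowest slopes, 0.18 to 0.475, had a median change of 0.48 in log2 level. The next groups of 50 had medians of 0.67 and 0.79, and the 50 with the highest slopes, 0.72 to 1.45, had 0.99. Level did not order the changes in this way, with r = 0.0035 between Day 1 level and change. These are correlations over genes of the same libraries, the slopes come from libraries the rule used, and slope and change share the Day 1 values.

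**Figure D4:**
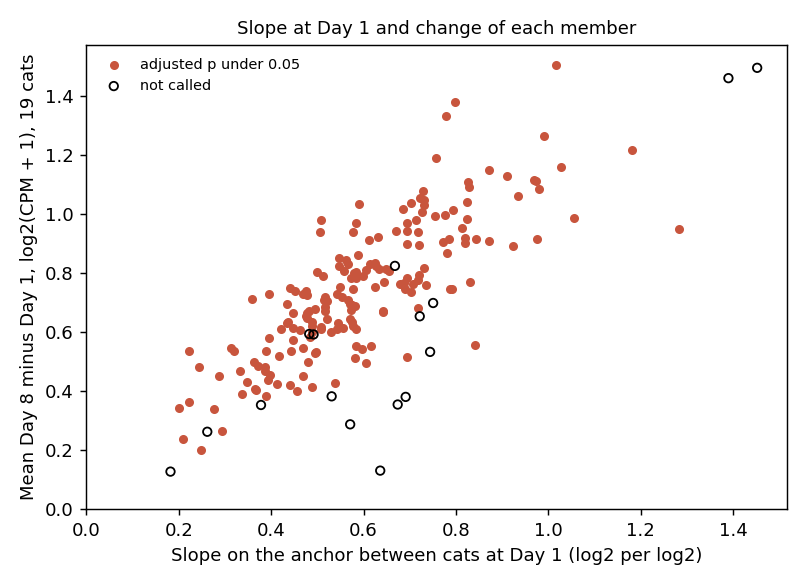
Each point is 1 of the 200 members, with its slope on the anchor between the 19 cats at Day 1 (log2 per log2) against its mean change in log2(CPM + 1) over 19 cats; open circles were not called. Members with steeper slopes changed more (r = 0.784), and the member with the steepest slope, 1.45, was not called.

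The list and its anchor did not move in a fixed ratio in every cat. In cat 2 the anchor changed by -0.03 while the members rose by 0.58, with 166 of 200 higher. In cat 13 the anchor rose by 2.76 and the members by 1.07. In cat 4, where the anchor changed by -0.07, the 50 members with the highest Day 1 r changed by -0.46 and the 50 with the lowest by -0.08.

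The rise was present in both sets of cats that the batch label divides. In cats 1 to 12, where both biopsies are labelled batch 1, the median log2 change of the members was 0.87 and all 200 were above 0. In cats 13 to 20, whose label changes between the days, the median was 0.77 and 199 were above 0. Per cat, the list changed by 0.76 ± 0.68 (SD, 11 cats, higher in 9) and by 0.69 ± 0.55 (SD, 8 cats, higher in 7). The smaller sets left 0 members past the adjusted threshold in edgeR. At an unadjusted p under 0.05, 191 members were higher in cats 1 to 12, against 9.61% of all genes, and 176 in cats 13 to 20, against 7.16%. DESeq2 called 153 members higher in cats 1 to 12, against 3.61% of all genes, and 121 in cats 13 to 20, against 2.51%.

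The difference between the sets was tested as an interaction with the cat as a block. Its median over the members was -0.07 with a median SE of 0.37, and 0 members reached an unadjusted p under 0.05, against 2.66% of all genes. In edgeR and in DESeq2 0 members were called. For the anchor the difference was 0.32 ± 0.55 (SE, unadjusted p = 0.568 in edgeR's test). With SEs of this size, differences of the order of the rise itself could go undetected. A change of batch occurs in cats 13 to 20 only, so it cannot be told apart from a difference between these cats and the others.

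**Figure D5:**
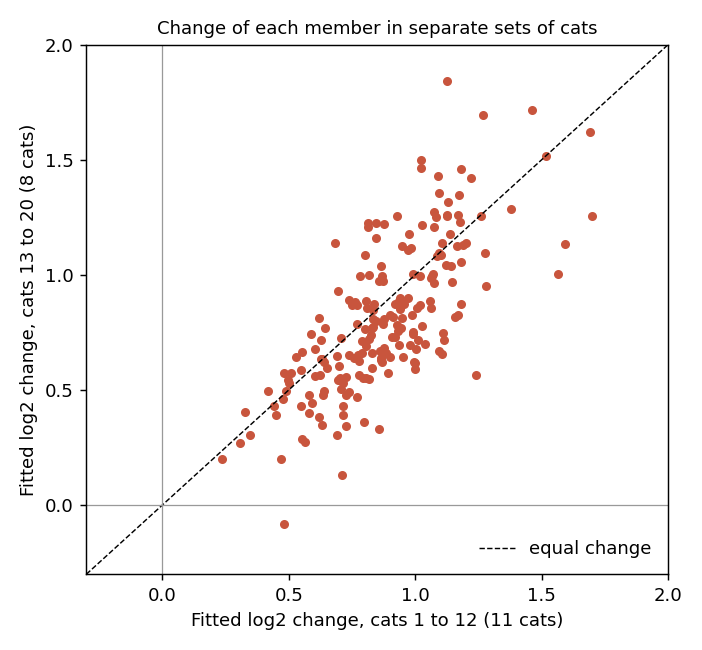
Fitted log2 change of each of the 200 members in cats 1 to 12 (horizontal, 11 cats, both days batch 1) and in cats 13 to 20 (vertical, 8 cats, batch 1 at Day 1 and batch 2 at Day 8); the dashed line marks equal change. All but 1 of the points lie above 0 on both axes, and 132 of 200 lie below the dashed line.

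The calls were lost without the cat block and with a batch term, while the size of the change moved less. With the block and a batch term 0 members were called, and the median change was 0.87. At an unadjusted p under 0.05, 191 were higher, against 10.5% of all genes. That fit takes the day change only from cats whose batch label is the same on both days. Fitted alone, these cats also gave a median of 0.87, with 0 members called. Whether batch itself had a part in the lost calls was not tested. Without the block 0 were called, the median was 0.88, and 166 were higher at an unadjusted p under 0.05, against 6.29%. With batch and no block, a fit that compares different cats, the median was 0.65, single members went down to -0.73, and 60 were higher at an unadjusted p under 0.05, against 3.49% of all genes.

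As a group, cats 14 to 20 had lower library totals and higher member levels at Day 1 than cats 1 to 13. This did not hold library by library. Within cats 14 to 20, cat 20 had the lowest total, 10.6 M counts, and also the lowest member mean, 4.81. Cats 14 to 20 had library totals of 12000000 ± 951000 counts at Day 1 and a member mean of 5.79 ± 0.81 (SD, 7 cats). Cats 1 to 13 had 19300000 ± 2350000 counts and a member mean of 4.80 ± 0.89 (SD, 12 cats). The same cats also stand apart by their place in the count table, and the sources used here do not say whether this order or the batch label follows the sequencing runs. The part of depth or of this order in the level was not tested. The change of the list was 0.64 ± 0.57 in the former and 0.78 ± 0.66 in the latter. With log2 library total as a covariate, 184 members were called higher, against 6.13% of all genes, and the median change was 0.89. With the anchor and the 3 left-out abundant genes removed from the table, 184 members were called higher, against 5.03% of all genes, and the median change was 0.84.

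The lists that the same rule gives for the other reference genes did not share this rise. By the rule they hold no gene that correlated most with the anchor at Day 1. The 200 genes that tracked ENSFCAG00000040576 had a median log2 change of -0.17, with 0 called higher and 4 lower. The 200 that tracked ENSFCAG00000042595 had a median of -0.03, with 1 called higher and 3 lower. Over all genes the shares were 5.11% higher and 1.93% lower. At an unadjusted p under 0.05 in edgeR's test, the former list had 65 genes, 0 of them higher. The latter had 41, 8 of them higher, and all 14996 tested genes had 3721, 1985 of them higher. The former list thus leaned towards lower levels at Day 8. At Day 8 these lists correlated with their own reference genes with medians of 0.554 and 0.266, against 0.910 for the members described here. They also started lower, with Day 1 medians of 0.661 and 0.561 against 0.872. With the anchor, these lists had a median r of -0.656 and -0.417 at Day 8. Members ran against ENSFCAG00000040576, with a median r of -0.52 at Day 1 and -0.39 at Day 8. The anchor itself had an r of -0.43 and -0.41 with that gene. For that gene the rule asked only that a member's Day 1 r be below its r with the anchor. Differences between the lists were not tested, because all were chosen from the same libraries.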

How the data were processed

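Whole-number read counts per gene ID and library, as the authors deposited them, were used without further correction, for 38 libraries. Per the submitters' processing notes, the tools were HISAT2 2.0.5 and featureCounts. For genome build, annotation, strand setting and treatment of shared reads, no statement was found in the labels. Values of genes that overlap or have near-identical copies are therefore uncertain. Library totals set the depth and are given in the text.

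Member choice used log2(CPM + 1) on library totals, as described above. The members, lists and tests were chosen with earlier results of these data known. Counts were filtered with filterByExpr (minimum count 10), which kept 14996 genes with 99.8% of all counts. They were scaled by TMM and fitted across all genes with edgeR 4.0.16 (robust quasi-likelihood test, R 4.3.3), with the cat as a block and day as terms. Benjamini-Hochberg adjustment was used, with a threshold of 0.05. DESeq2 1.42.0, other scalings, filters, blocks and single cats left out were alternatives. The scripts were tested on simulated data.

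The labels do not say that a number is a cat. Pairing was taken from the data: deviations from the day means correlated within all 19 same-numbered pairs, with r from 0.364 to 0.882, against a median of -0.05 between different numbers. The check shows that same-numbered libraries are alike, while it is assumed that different numbers are separate animals. With the block, p-values measure how the change from Day 1 to Day 8 varies between the numbers. Members described singly follow a rule: the 10 largest called changes with the same direction in at least 12 cats, the 5 highest r and the 2 genes on each side of the limit. Since no symbols matched, the IDs of 2 genes that rose and of the 2 other reference genes are printed. Other members were singled out after their values were seen. The gene and cell type lists by symbol could not be applied. 0 columns were left unused.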

Additional observations from a re-analysis of the deposited data

Results flagged for a closer look

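The Day 1 library of cat 13 had a total of 22.1 M (22100000) counts, far above the other 7 Day 1 libraries of cats 13 to 20, which had 10600000 to 13800000. It lies within the 14.4 to 22.6 M of cats 1 to 12, beside which its column stands in the count table. Of 24 such checks of the highest and lowest values in these 8 cats, this was the only 1 past the limit, and chance alone marks about 1 in 20 groups. Without cat 13, 171 of 200 members were called higher, against 652 of all 15019 tested genes.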

How the results depend on the processing

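The median log2 change of the members stayed above 0 and within 1 SD of the changes between cats under all 31 alternatives run, and was 0.75 with library totals, which moved the median of all genes to -0.11. In edgeR, 5 settings left 0 members and 0 genes called, against 184 members, all higher, and 1057 genes (767 higher, 290 lower). They were no replicate block, with or without batch, replicate block and batch, and cats 1 to 12 or 13 to 20 alone. Fewer cats enter the last pair, where DESeq2 called 153 and 121 members higher. With the block, a batch term also leaves the day change to cats 1 to 12. Fits with no block leave the differences between cats in their residual spread, and the part of this in the lost calls was not tested. Over all genes the count was 1814 with library totals (575 higher, 1239 lower) and 2143 in DESeq2, where 182 and 194 members were called. Leaving out 1 cat gave 160 to 188 members called higher and 671 to 1166 genes called in either direction. The latter were 683 without cat 5, 674 without cat 11 and 671 without cat 20. Of the 184 called members, 156 passed with each cat left out in turn. The difference between the sets of cats was called for 0 genes in edgeR, 399 at an unadjusted p under 0.05, and for 4 in DESeq2. The anchor and ENSFCAG00000015298 kept their direction in every setting that tested them and missed the threshold in the same 5 settings that left 0 calls, with adjusted p from 0.0795 to 0.766. The median Day 8 correlation was 0.887 to 0.918 with 1 cat left out, and the mean change per cat 0.66 to 0.79. Scaling to genes outside the list or to the median gene, removing the 4 abundant genes, leaving cats out of the Day 8 correlation and the other settings within each set of cats were alternatives chosen after seeing the data.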
